A study of Oryza sativa Japonica Group with 30 samples.

Results

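The genes described here serve protein folding and stress sensing in the endoplasmic reticulum. They were chosen by identifier: 10 loci of the 55801 listed in the deposited gene table. Of these, 7 encode folding enzymes and chaperones, and 3 encode a stress sensor and transcription factors of the stress response. RNA was sequenced from entire rice caryopses (grains in development, fruit coat included) that were picked unripe from paddy-grown plants at 7 days after pollination. There were 30 samples in 10 groups of 3. The transgenic lines were OX-ONAC127 and OX-ONAC129, which overexpress 1 of these NAC transcription factor genes, and CR-ONAC127 and CR-ONAC129, which are mutants of either gene. The wild type was ZH11. Each of these 5 genotypes was grown under natural heat stress (H), with about 6 h a day above 35 °C and peaks near 40 °C, and under normal cultivation (N), where 35 °C was passed on 3 days and daytime averaged about 30 °C. The labels give neither the promoter that drives the overexpression nor the number of independent lines, nor do they state if separate plants were used for the 3 samples in each group.

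The endoplasmic reticulum is where secreted and stored proteins enter the secretory route, fold and form disulfide bonds. In the rice endosperm its main load is storage protein, the glutelins that travel on to vacuoles and the prolamins that stay in bodies bounded by its membrane. When unfolded proteins build up, sensors in the membrane start the unfolded protein response. IRE1 cuts the mRNA of a bZIP factor so that an active factor can be made, and other bZIP factors are held in the membrane until they are cleaved and move to the nucleus. These factors then raise the transcription of chaperone and isomerase genes.

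All levels below are 1 pooled value per gene, the deposited mean over 30 libraries of read counts divided by library size factors, in normalised counts. The 8 tables, whose names pair a transgenic line with ZH11 in H or N, held identical values. The pooled level therefore allows no contrast of genotype or heat, and has no SD and no test. The values are reads per gene and are not divided by transcript length, which is not in the material used here. A ratio between genes below is therefore a ratio of reads and not of transcripts. Because RNA came from whole caryopses, fewer cells of a type and less RNA per cell cannot be told apart.

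The pooled profile had 40831 genes above 0 with a median of 15.9 normalised counts, and 2109 of them (5.17%) reached 1000. The tissue label was checked against marker genes. The endosperm genes GluA1, GluA2, GBSSI and RPBF ranged from 20001 to 61910 normalised counts, 2 light-harvesting genes of the green fruit coat had 10679 and 4669, the oleosins Ole16 and Ole18 of embryo and aleurone had 24670 and 21160, and OSH1 of the embryonic shoot meristem had 15.3. The worth of 1 read, read from the lowest values, gave 30 libraries with size factors (relative depth) from 0.551 to 1.64. Since no read was worth more than 0.0605 normalised counts, the counting SE of each pooled mean has an upper limit. This limit is given below as the counting SE and covers counting error only, not the spread between samples.

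All 10 genes were read, as were 40831 of all 55801 genes. Of the 10, 8 reached 1000 normalised counts, against 5.17% of all genes above 0. Their median was 1917 normalised counts, and their percentiles among the genes above 0 had a median of 97.3. The 10 genes were chosen with earlier results of these data known, so both contrasts are descriptions and not tests. PDIL1-1 stood far above the rest and held 58.4% of the sum over the 10 genes. A block of 7 genes lay close together, from 1425 to 3156 normalised counts, and held folding genes as well as both transcription factor genes. The 2 lowest, IRE1 and the calreticulin locus of chromosome 3, had 196 and 172 normalised counts.

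**Figure D1:**
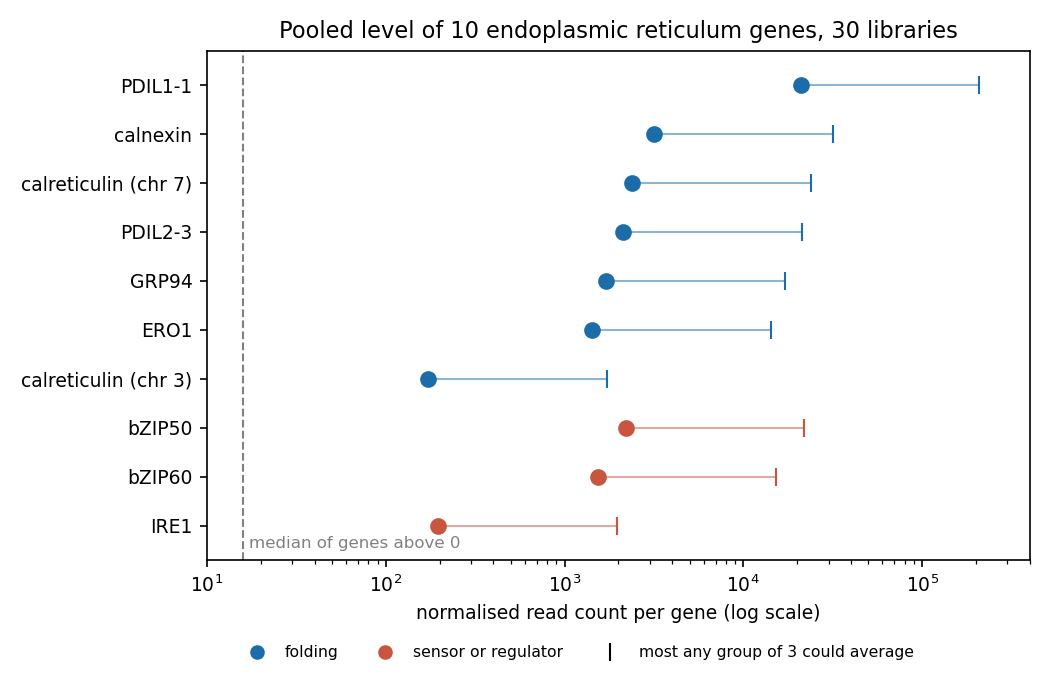
Pooled normalised read count per gene (log axis) of the 7 folding genes (blue, above) and the 3 sensor and regulator genes (red, below). Dots are the pooled means over 30 libraries, the tick at the end of each line is 10 times that mean, the most that any group of 3 libraries could average, and the dashed line is the median of all genes above 0, 15.9. PDIL1-1 stands alone at 20924, and IRE1 and the chromosome 3 calreticulin lie lowest at 196 and 172.

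PDIL1-1 (LOC_Os11g09280, chromosome 11) encodes a protein disulfide isomerase, which makes and rearranges disulfide bonds. Rice plants that lack it accumulate unprocessed glutelin precursor in the endosperm. Its pooled mean was 20924 normalised counts with a counting SE of at most 35.6, rank 38 of all genes. It had 6.63 times the reads of calnexin, the next of the 10 genes, and its lead of 17768 normalised counts was far larger than the counting SE of that difference, at most 38.2.

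PDIL2-3 (LOC_Os09g27830, chromosome 9) encodes another isomerase, known in rice from the surface of the prolamin bodies. It had 2128 normalised counts (counting SE at most 11.3), rank 960. PDIL1-1 thus had 9.83 times the reads of PDIL2-3. ERO1 (LOC_Os03g52340, chromosome 3) is listed as the oxidase that passes oxidising power on to protein disulfide isomerases. It had 1425 normalised counts (counting SE at most 9.28), rank 1500, and was the lowest of the 7 genes in the close block. PDIL1-1 had 14.7 times its reads and PDIL2-3 had 1.49 times.

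The lectin chaperones bind newly made glycoproteins and hold them until they are folded. Calnexin (LOC_Os04g32950, chromosome 4), listed as the form anchored in the membrane, had 3156 normalised counts (counting SE at most 13.8), rank 600. The calreticulin locus of chromosome 7 (LOC_Os07g14270), the soluble counterpart, had 2397 normalised counts (counting SE at most 12.0), rank 843. Calnexin had 1.32 times the reads of this calreticulin locus.

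The other locus listed as a calreticulin, LOC_Os03g61670 on chromosome 3, had only 172 normalised counts (counting SE at most 3.23), rank 9053. The chromosome 7 locus had 13.9 times its reads. Reads that related genes share may have been split or dropped in counting, and the counter is not given in the sources used here. Whether this touched the calreticulin values was not tested.

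GRP94 (LOC_Os06g50300, chromosome 6) is listed as the Hsp90 chaperone of the endoplasmic reticulum, which acts on proteins that are already partly folded. It had 1705 normalised counts (counting SE at most 10.2), rank 1214. Calnexin had 1.85 times its reads.

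IRE1 (LOC_Os07g28820, chromosome 7) encodes the kinase and RNase in the membrane that senses unfolded proteins. It had 196 normalised counts (counting SE at most 3.44), rank 8391, the lowest of the 3 sensor and regulator genes. This was 1.14 times the reads of the chromosome 3 calreticulin, a difference of 24.0 normalised counts with a counting SE of at most 4.72.

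bZIP50 (LOC_Os06g41770, chromosome 6) encodes the transcription factor whose mRNA IRE1 cuts. It had 2198 normalised counts (counting SE at most 11.5), rank 926, and so 11.2 times the reads of IRE1. A read count per gene does not separate the cut from the uncut mRNA, so the value says nothing of the state of the response. bZIP60 (LOC_Os07g44950, chromosome 7) encodes a factor anchored in the membrane. It had 1531 normalised counts (counting SE at most 9.62), rank 1387, which was 7.81 times the reads of IRE1, and bZIP50 had 1.44 times the reads of bZIP60.

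**Figure D2:**
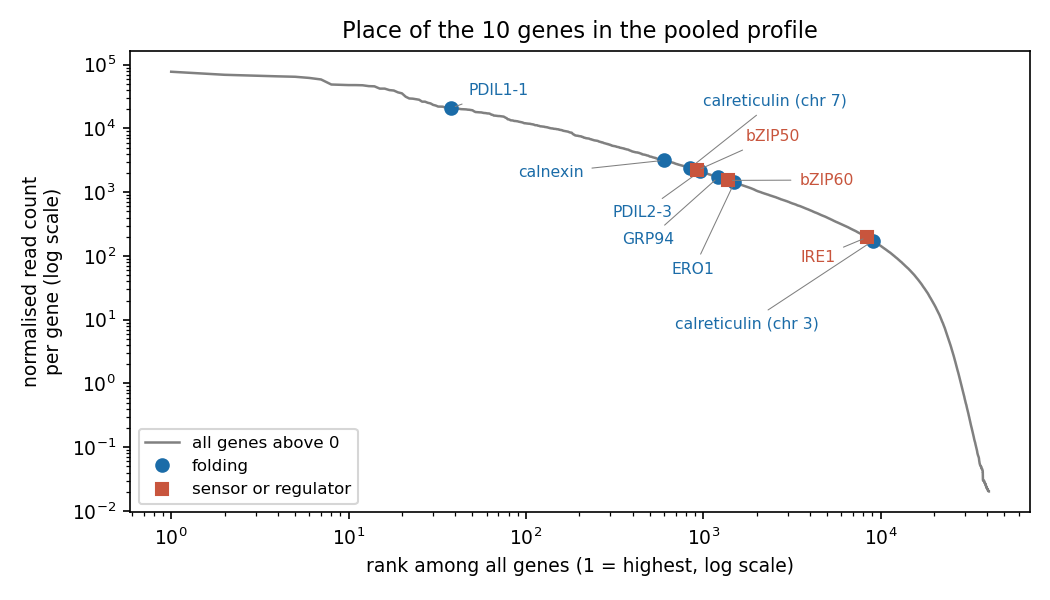
All genes above 0 ordered by pooled normalised read count (grey line, both axes logarithmic), with the 7 folding genes as blue circles and the 3 sensor and regulator genes as red squares. PDIL1-1 sits at rank 38, the close block of 7 genes between ranks 600 and 1500, and IRE1 and the chromosome 3 calreticulin at ranks 8391 and 9053.

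Taken as classes, the 7 folding genes and the 3 sensor and regulator genes overlapped in level. The folding genes ran from 172 to 20924 normalised counts with a median of 2128, and the sensor and regulator genes from 196 to 2198 with a median of 1531. The ratio of the medians was 1.39. Leaving out each of the 10 genes in turn gave 1.14 to 2.46, the highest without bZIP50, and geometric means gave 2.33. The direction turned with the genes entered: the ratio was 0.329 when the other pathway genes described below were added to their classes. Those added to the folding class were BiP and isomerase-like genes, and only bZIP39 joined the other class. Because the direction turned, neither class was shown to stand above the other. The sums lay further apart, but they are over unlike numbers of genes, 7 and 3. The folding genes held 0.275% of all normalised counts and the sensor and regulator genes 0.0338%. PDIL1-1 alone held 0.180%, and the 6 other folding genes together held 0.0946%. Without PDIL1-1 the folding genes had a median of 1917 and a highest value of 3156 normalised counts. In order of level, the 10 genes did not separate by class: bZIP50 stood between the chromosome 7 calreticulin and PDIL2-3, and bZIP60 between GRP94 and ERO1. The neighbours closest in ratio were bZIP50 and PDIL2-3, where bZIP50 had 1.03 times the reads. They differed by 70.4 normalised counts with a counting SE of at most 16.2. Every other step in the order was larger relative to the limit on its counting SE, but the spread between samples is not known, so the order within the close block was not tested.

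Other genes of the same pathway were listed by identifier: 5 BiP genes, 10 more genes of the isomerase-like (PDIL) family and bZIP39. All 16 were read, with a median of 200.3 normalised counts. Of the 16, 2 reached 1000, against 5.17% of all genes above 0. BiP is the Hsp70 chaperone of the endoplasmic reticulum and a target of the unfolded protein response. BiP1 (LOC_Os02g02410) had 20781 normalised counts, nearly level with PDIL1-1, which had 1.01 times its reads. The 4 other BiP loci were far lower: BiP4 (LOC_Os05g35400) had 51.6 normalised counts, BiP2 (LOC_Os03g50250) had 34.9, LOC_Os08g09770 had 4.28 and BiP3 (LOC_Os05g30480) had 3.52. BiP1 held 99.5% of the reads of the 5 loci. Whether reads shared by related genes touched these values, or those of the PDIL family below, was not tested.

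The PDIL family was uneven in the same way but less so. Over its 12 genes PDIL1-1 held 64.1% of the normalised counts, PDIL1-4 (LOC_Os02g01010) held 21.9% with 7149 normalised counts and PDIL2-3 held 6.52%. The other 9 genes had a median of 248 normalised counts and none reached 1000. Within the PDIL2 genes, PDIL2-3 had 3.41 times the reads of PDIL2-1 (625 normalised counts) and 6.13 times those of PDIL2-2 (347 normalised counts). Within the PDIL1 genes the range was wide: PDIL1-5 had 351 normalised counts, PDIL1-2 had 14.2 and PDIL1-3 had 12.6, so that PDIL1-2 and PDIL1-3 lay below the median of all genes above 0. The PDIL5 genes ran from 121 to 563 normalised counts. bZIP39 (LOC_Os05g34050), which like bZIP60 encodes a factor held in the membrane, had 593 normalised counts, and bZIP60 had 2.58 times its reads.

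**Figure D3:**
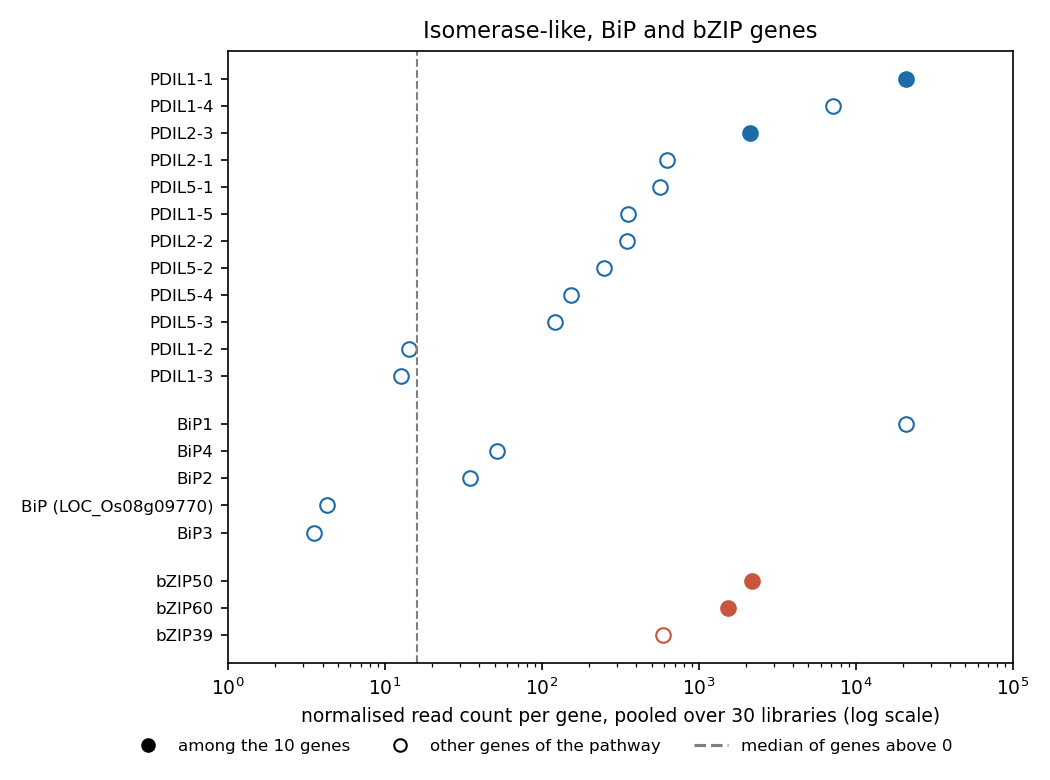
Pooled normalised read count per gene (log axis) of the 12 PDIL genes, the 5 BiP loci and 3 bZIP regulators, each family ordered from high to low. Filled circles are among the 10 genes, open circles are other genes of the pathway, and the dashed line is the median of genes above 0. A single BiP locus, BiP1 at 20781, stands apart from the other 4, whereas the PDIL values fall off in steps from 20924 to 12.6.

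A pooled mean sets an upper limit on the mean of any group. No count is below 0, so the mean of any group of 3 libraries can be at most 10 times the pooled mean, and the mean of the 15 libraries of either condition at most 2 times. The chromosome 3 calreticulin could therefore average no more than 1721 normalised counts in any group and IRE1 no more than 1960. Over the heat-stressed libraries or over the normally grown ones, IRE1 could average no more than 392 normalised counts, bZIP50 no more than 4397 and bZIP60 no more than 3062. None of the 4 low BiP loci could average more than 516 normalised counts in a group. These limits say nothing of where a value lies below them.

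Around each gene, the 5 loci listed on either side of it along the chromosome were taken as a local background. The 10 genes had 100 such flanking loci, of which 25 were listed at 0, against 14970 of all 55801 genes. In 8 of the 10 cases the gene lay above all 10 of its flanking loci, and these were the 8 genes of at least 1000 normalised counts. The same held for 8.63% of all genes with 5 loci on each side, but for 72.4% of the 2103 such genes of at least 1000 normalised counts. The count therefore goes with the level of the genes and is not particular to them. PDIL1-1 had 53.1 times the reads of the highest of its flanking loci, which had 394 normalised counts. Calnexin had 9.29 times, bZIP50 had 6.14 times and PDIL2-3 had 5.25 times the reads of theirs. The margins were smaller for the chromosome 7 calreticulin (4.10 times), GRP94 (3.35 times), bZIP60 (1.61 times) and ERO1 (1.52 times). IRE1 lay below 1 of its flanking loci, which had 323 normalised counts, and the chromosome 3 calreticulin lay below 4 of them, the highest at 877. With 10 loci on each side, the margin of PDIL2-3 fell to 1.35 times, that of calnexin to 3.78 times and that of GRP94 to 2.50 times. The margins of PDIL1-1, the chromosome 7 calreticulin, bZIP50, bZIP60 and ERO1 did not change.

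**Figure D4:**
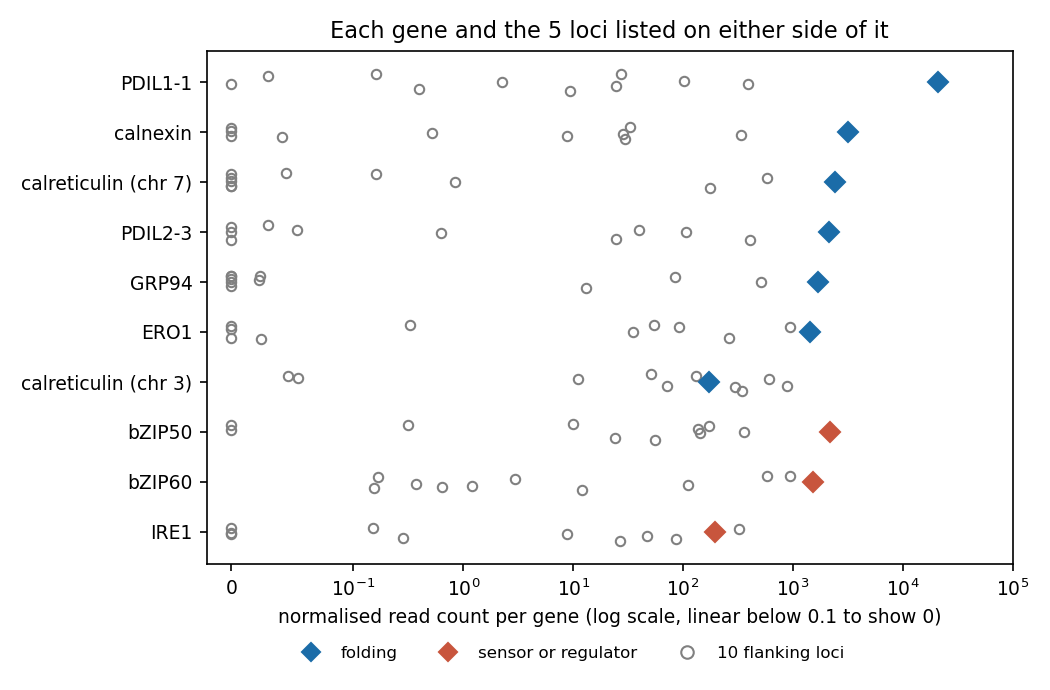
Pooled normalised read count (logarithmic axis, linear below 0.1 so that 0 can be shown) of each of the 10 genes (diamonds, folding genes in blue above and sensor and regulator genes in red below) and of the 5 loci listed on either side of it (open grey circles, spread vertically for legibility). The diamond lies right of all grey circles in 8 rows, and among them in the rows of the chromosome 3 calreticulin and IRE1.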

How the data were processed

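Total RNA of 30 caryopsis samples was sequenced, and titles gave the groups. CASAVA 1.7, HISAT2 2.0.5 and DESeq2 were the authors' tools per the submitters' processing notes. Which read counter, strand setting, genome build and annotation they used is not given in the sources used here. Per the file headers, each of 8 tables, all identical, held a gene identifier and a baseMean, a signal deposited by the authors which in DESeq2 is the average, over all samples, of size-factor normalised counts. No column holds a single sample.

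The 10 genes and all lists were chosen with earlier results of these data known. All 10 genes are named, and other pathway genes where a sentence turns on them. Names were paired with identifiers by the gene list used here and sought in the RefSeq gene table of assembly ASM3414082v1, which carries no identifier of this form. A name matched where a gene of that symbol or synonym lay on the same chromosome at a relative place within 0.1 of that of the locus. For the RefSeq gene this place came from its base position. For the locus it was the number in its identifier over the highest such number on the chromosome, which only stands in for a base position. This held for 6 of the 10 genes (PDIL1-1, PDIL2-3, the chromosome 7 calreticulin, IRE1, bZIP50 and bZIP60) and for 15 of the 16 other pathway genes. PDIL2-3 came nearest the limit, with a difference of 0.0815. PDIL1-1 was next of the matched 10 genes at 0.0312, and the largest among the other pathway genes was 0.027. ERO1, calnexin, the chromosome 3 calreticulin, GRP94 and LOC_Os08g09770 rest on the list alone, and the marker genes were not sought.

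The worth of 1 read per library was taken from values below 0.07 that are not sums of smaller ones within 1e-11, and the procedure was tested on simulated data. The largest worth times the pooled mean bounds the counting variance, with reads taken as independent molecules. Planned tests of genotype and heat were not run, since they need values per sample. Scripts ran in Python 3.11.15 with pandas 2.3.3, numpy 2.4.6 and, for plots, matplotlib 3.10.9.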

Additional observations from a re-analysis of the deposited data

How the results depend on the processing

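The ratio of the folding median to the sensor and regulator median, 1.39, depended on which genes entered. It was 2.33 with geometric means, 1.57 with the 6 genes matched by name (chosen after seeing the data) and 1.39 without both calreticulins. Leaving out each of the 10 genes in turn gave 1.14 to 2.46, above 1 in all 10 cases. With the other pathway genes added to their classes the ratio reversed to 0.329. The 16 added genes had a median of 200.3 normalised counts, taken over both classes, with bZIP39 in the sensor and regulator class. The median percentile of the 10 genes was 97.3 against genes above 0, 98.1 against all genes and 95.1 against genes of at least 10 normalised counts. The count of genes above all flanking loci was 8 with 3, 5 or 10 loci on each side, though some margins were lower with 10. The number of libraries found was 30 under each bound and tolerance tried. Both the flank and the library settings were chosen after seeing the data. The scale per kb of coding length, the promoter motifs and the tests of genotype and heat with their alternatives (other normalisation and tool, no filter, left-out replicates) were not run. The first and second of these need sequences not used here and the tests need values per sample. No paired analysis was possible because a mean over all samples has no replicates to pair.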
